A study of Mus musculus with 36 samples.

Results

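Arntl, Clock, Npas2, Bhlhe40 and Bhlhe41 encode the DNA-binding activators of the circadian clock and the related DEC repressors. They were found by their symbols in the deposited gene tables, where they are 5 of 24421 genes, and were followed through liver RNA of 36 male C57BL/6J mice. All mice were 7 weeks old at purchase and had eaten the CDAHFD for 12 weeks, a diet rich in fat and without added choline that brings about fibrosing steatohepatitis. In the HFD experiment, a high-fat diet replaced the CDAHFD for 2 weeks with weekly subcutaneous injections, of Fc in 10 mice (4.3 mg/kg) and of Fc(mML1)B3 in 10 others (5 mg/kg). In the second experiment, a standard diet replaced it for 10 days, and the same doses were injected on days 1, 4 and 7, with Fc in 9 mice and Fc(mML1)B3 in 7. Fc is an antibody fragment, and Fc(mML1)B3 is the same fragment carrying a grafted peptide that activates the receptor Met of the mouse. Diet went together with experiment, dosing and length of treatment, so that these cannot be told apart. The mice lived in 12 hours of light and 12 hours of dark, and the hour at which livers were taken is not given in the sources used here.

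The mammalian clock is a feedback loop of transcription. BMAL1, the protein of Arntl, pairs with CLOCK or with its paralog NPAS2, binds E-box sequences, and drives the Per, Cry, Nr1d1, Nr1d2 and Dbp genes as well as the Dec genes Bhlhe40 (DEC1) and Bhlhe41 (DEC2). PER and CRY proteins inhibit the activator pair, DEC proteins compete for the E-boxes, and REV-ERB proteins, encoded by Nr1d1 and Nr1d2, repress Arntl, Npas2 and Clock, where ROR proteins activate them. In liver this loop times lipid and glucose metabolism to the daily cycle of feeding, and Arntl RNA is known to cycle in antiphase to Nr1d1 and Dbp RNA.

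On mm10, Arntl lies on chromosome 7 from 113207465 to 113314126 on the plus strand, Clock on chromosome 5 from 76209868 to 76304792 on the minus strand, and Npas2 on chromosome 1 from 39194272 to 39363240 on the plus strand. Bhlhe40 lies on chromosome 6 from 108660629 to 108666925 on the plus strand, and Bhlhe41 on the same chromosome from 145858243 to 145865420 on the minus strand. Bhlhe40 shares 118 exonic bases with 0610040F04Rik on the other strand, and strand was ignored in the counting, so that reads there could not be separated. The other 4 shared no exonic base with another gene.

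RefSeq promoter windows of GRCm38.p6, 250 bases before to 50 bases after a start site, were matched for 4 of the 5 genes (Arntl, Clock, Npas2 and Bhlhe41). They were searched on both strands for the E-box CACGTG, the ROR element core TAGGTCA or TGGGTCA, through which REV-ERB and ROR proteins act, and the D-box TTANGTAA. The core stood in 1 of the 4 genes, Arntl, and in 7.35% of all 27025 genes with a window. The E-box stood in 1, Bhlhe41, and in 8.09% of all genes. The D-box stood in 0 of the 4 and in 2.72% of all genes, and the CCAAT box, searched as CCAAT, in 3 of the 4 and in 41.1% of all genes. The core of Arntl and the E-box of Bhlhe41 are printed because they are the only ones among the 4 genes, that of Nfil3 because it is the only other core in the lists of clock genes searched, and that of Per1 as 1 example of the E-boxes there, which also stood in windows of Cry1, Ciart, Cipc, Tef and Tspan4. Each stretch runs 5′ to 3′ on the strand of its gene, with the match in capitals. The core of Nfil3 lies on the strand opposite to the gene and therefore appears as its reverse complement.
Arntl, chr7:113207530-113207558, plus strand: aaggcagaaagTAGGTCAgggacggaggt
Nfil3, chr13:52981034-52981062, minus strand: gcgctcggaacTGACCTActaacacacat
Bhlhe41, chr6:145865557-145865584, minus strand: ggtacgttccgCACGTGagctgggtgct
Per1, chr11:69098772-69098799, plus strand: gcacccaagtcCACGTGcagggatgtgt
Bases are counted from the RefSeq start site whose window holds the match, and Arntl and Per1 have 2 windows each. The core began at base 31 from the start site of the Arntl window at chr7:113207261-113207560, which lies downstream of the gene start given above, and at base -12 of Nfil3. The E-boxes began at base -153 of Bhlhe41 and at base -166 of Per1. A match is a stretch of letters and does not show that a protein binds there.

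Total counts were 14949035 to 28466853 per library, with 1 library per mouse, and no pair of libraries of a group was a duplicate (chi-square per degree of freedom at least 6.305 over 147 pairs). Values are CPM, a gene's reads divided by the library total and brought to a common large total, scaled between libraries by TMM. As to the label of liver, 8 hepatocyte markers summed to 79230 to 156600 CPM, while 4 skeletal muscle markers reached at most 0.327 CPM. The libraries were divided here into 5 series by the library numbers in the deposited files and, in part, by group. Series D shares no number with series B or C, so that the numbers alone do not separate it from them. Whether a series was a separate run is not given in the sources used here. In the HFD experiment, all Fc libraries belong to series A and the Fc(mML1)B3 libraries to series B (4) and C (6), so that series and protein cannot be told apart there. In the standard diet experiment, 5 Fc libraries belong to series D and the other 4, with all 7 Fc(mML1)B3 libraries, to series E.

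Under the HFD, the RNAs of Arntl and Clock were higher in the livers of mice given Fc(mML1)B3, that of Bhlhe41 was lower, and that of Bhlhe40 did not pass the test. Of the 5 genes, 4 passed the filter on low counts, and Npas2 was left untested. In edgeR's quasi-likelihood test, at a Benjamini-Hochberg adjusted p below 0.05 over 13299 genes, 2 of the 5 were called higher and 1 lower, where 8.14% of all genes tested were called higher and 6.68% lower.

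Arntl was measured at 0.619 to 2.09 CPM in the Fc mice (median 1.14) and at 6.68 to 28.7 CPM in the Fc(mML1)B3 mice (median 19.8). Every Fc(mML1)B3 liver lay above every Fc liver. The means were 1.19 ± 0.497 CPM (SD, n = 10) and 18.6 ± 8.09 CPM (SD, n = 10), and the fitted log2 fold change was 3.98 (SE 0.29, adjusted p = 1.08e-08 in edgeR), the smallest p of the 13299 genes. A permutation test of the mean log2 CPM gave p = 3e-05. Within the Fc(mML1)B3 group, the 4 livers of series B held 6.68 to 17.1 CPM and the 6 of series C held 10.1 to 28.7 CPM. Against all Fc mice, the log2 fold change was 3.34 with the series B livers alone and 4.29 with the series C livers alone, called in both.

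Clock, the partner of BMAL1, was measured at 14.6 to 21.7 CPM in the Fc mice (median 17.5) and at 18.2 to 44.8 CPM in the Fc(mML1)B3 mice (median 37.3). In 9 of the 10 Fc(mML1)B3 livers the value lay above all Fc livers, and the other, mouse 2, lay within the Fc range at 18.2 CPM. The log2 fold change was 1.02 (SE 0.12, adjusted p = 8.9e-06 in edgeR), with p = 7e-05 in the permutation test. It was 0.72 with the series B livers alone and 1.19 with the series C livers alone, called in both.

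Npas2, which can take the place of CLOCK beside BMAL1, gave few reads, 2 to 10 per Fc library and 2 to 103 per Fc(mML1)B3 library. Only 1 of 10 Fc and 7 of 10 Fc(mML1)B3 libraries had at least 10 reads, and the filter left the gene untested under the HFD. It was measured at 0.0662 to 0.491 CPM in the Fc mice (median 0.207) and at 0.0862 to 3.66 CPM in the Fc(mML1)B3 mice (median 0.671), and 6 of the 10 lay above all Fc mice. These 6 were the livers of series C, at 0.545 to 3.66 CPM, while the 4 of series B, at 0.0862 to 0.417 CPM, lay within the Fc range. The part of the number series in this difference was not tested, since all Fc libraries are of series A. With no filter the log2 fold change was 2.35 (adjusted p = 0.0076 in edgeR). The permutation test gave p = 0.015.

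Bhlhe41 (DEC2) was measured at 5.62 to 13.6 CPM in the Fc mice (median 11.4) and at 2.67 to 11.4 CPM in the Fc(mML1)B3 mice (median 5.12). In 6 of the 10 Fc(mML1)B3 livers it lay below every Fc liver, and the ranges overlapped. The log2 fold change was -0.93 (SE 0.21, adjusted p = 0.004 in edgeR), with p = 6.9e-04 in the permutation test. It was -1.21 with the series B livers alone and -0.75 with the series C livers alone, where the adjusted p was 0.049.

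Bhlhe40 (DEC1) was measured at 99.5 to 149.5 CPM in the Fc mice (median 124) and at 98.6 to 139.2 CPM in the Fc(mML1)B3 mice (median 115). The ranges overlapped almost entirely. The log2 difference was -0.12 with a 95% interval of -0.29 to 0.05 (adjusted p = 0.33 in edgeR), and the permutation test gave p = 0.162.

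**Figure D1:**
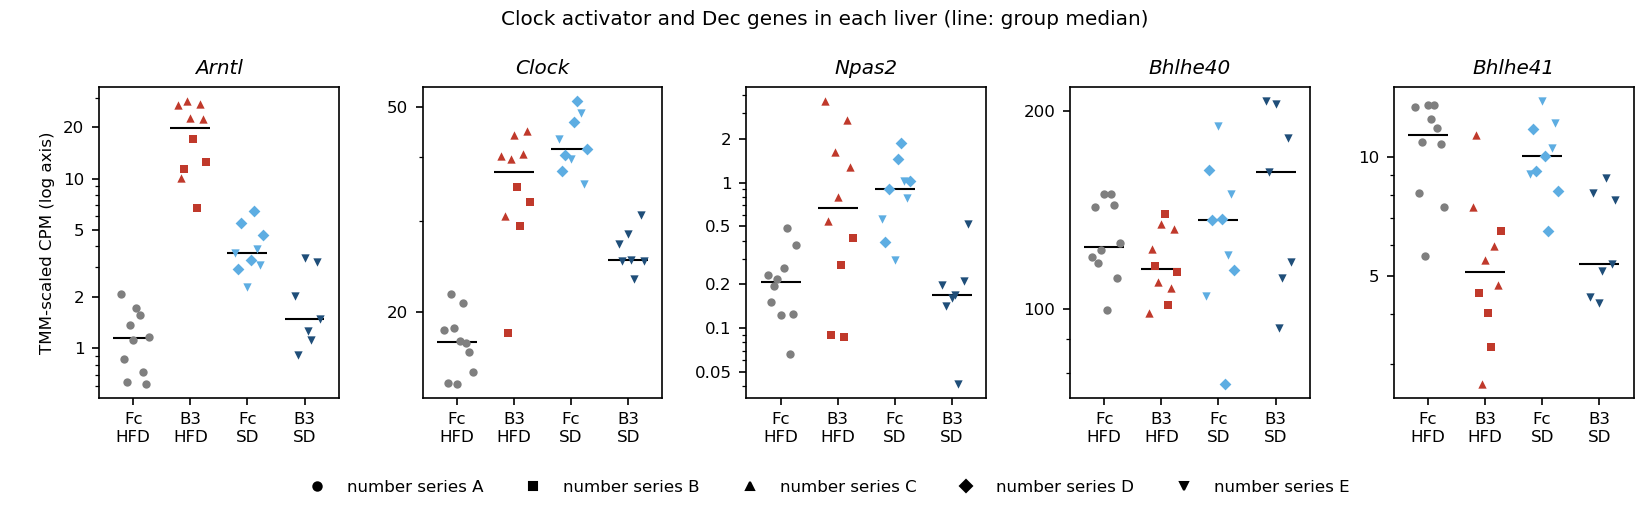
CPM of each gene in each liver, scaled by TMM, on log axes, with 1 point per mouse, a line at the group median, and the shape of a point giving the library number series. B3 stands for Fc(mML1)B3 and SD for the standard diet. All 10 Fc(mML1)B3 livers lie above the Fc livers for Arntl under the HFD, and all 7 lie below for Clock under the standard diet.

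Under the standard diet, the RNAs of Arntl and Clock were lower in the mice given Fc(mML1)B3. Bhlhe41 was lower as under the HFD, and Bhlhe40 again did not pass the test. All 5 genes passed the filter, Npas2 through the group in which it was higher. Of the other 4, 3 were called lower and 0 higher, where 7.55% of the 13570 genes tested were called lower and 8.56% higher.

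Arntl was measured at 2.3 to 6.45 CPM in the Fc mice (median 3.62) and at 0.918 to 3.39 CPM in the Fc(mML1)B3 mice (median 1.49). In 5 of the 7 Fc(mML1)B3 livers it lay below every Fc liver, and the other 2, at 3.2 and 3.39 CPM, lay within the Fc range. The log2 fold change was -1.05 (SE 0.27, adjusted p = 0.011 in edgeR), with p = 0.0025 in the exact permutation test. The 5 Fc livers of series D held 2.94 to 6.45 CPM and the 4 of series E held 2.3 to 3.87 CPM. Within series E, which holds both proteins, the log2 difference was -0.76 and was not called (adjusted p = 0.171 in edgeR).

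Clock was measured at 35.5 to 51.4 CPM in the Fc mice (median 41.4) and at 23.2 to 30.8 CPM in the Fc(mML1)B3 mice (median 25.3). The groups did not overlap. The log2 fold change was -0.69 (SE 0.08, adjusted p = 3.9e-06 in edgeR), and the exact permutation test gave p = 8.74e-05, the smallest that 11440 groupings allow. Within series E it was -0.66 and was called.

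Npas2 gave 7 to 45 reads per Fc library and 1 to 14 per Fc(mML1)B3 library. At least 10 reads were found in 7 of 9 Fc and in 1 of 7 Fc(mML1)B3 libraries, so that the gene passed the filter through the Fc group, and its fitted values are given as a description. It was measured at 0.293 to 1.89 CPM in the Fc mice (median 0.904) and at 0.0414 to 0.521 CPM in the Fc(mML1)B3 mice (median 0.168). In 6 of the 7 Fc(mML1)B3 livers it lay below every Fc liver. The log2 fold change was -2.12 (SE 0.42), and within series E it was -1.66. The exact permutation test, which uses no filter, gave p = 6.1e-04.

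Bhlhe41 was measured at 6.49 to 13.9 CPM in the Fc mice (median 10.0) and at 4.28 to 8.86 CPM in the Fc(mML1)B3 mice (median 5.35). All 7 Fc(mML1)B3 livers lay below the median of the Fc livers, and 4 lay below every one of them. The log2 fold change was -0.69 (SE 0.17, adjusted p = 0.0083 in edgeR), with p = 0.0031 in the exact permutation test, and within series E it was -0.86 (adjusted p = 0.016). In the fit of all 36 libraries the value was the same, -0.69, with an adjusted p of 0.055, and the call was lost.

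Bhlhe40 was measured at 77 to 190 CPM in the Fc mice (median 136.5) and at 93.5 to 207 CPM in the Fc(mML1)B3 mice (median 161). Of the 7 Fc(mML1)B3 livers, 2 lay above every Fc liver and the others within the Fc range. The log2 difference was 0.22 with a 95% interval of -0.15 to 0.58 (adjusted p = 0.44 in edgeR), and the exact permutation test gave p = 0.356.

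The interaction in the fit of all 36 libraries tested whether Fc(mML1)B3 and Fc mice differed alike in the HFD and the standard diet experiments. It called 9.06% of 14105 genes. The difference is the log2 fold change under the standard diet minus that under the HFD. It was -5.02 for Arntl (SE 0.42, adjusted p = 1.5e-10 in edgeR), the smallest p of all genes tested. It was -1.69 for Clock (SE 0.16, adjusted p = 2.4e-09). Arntl and Clock were thus called higher in the HFD experiment and lower in the other. For Npas2 the difference was -4.47 (SE 0.78) in edgeR, -4.53 in DESeq2, which gave it no adjusted p, and -3.68 in limma-voom. Its reads were low in the Fc group of the HFD experiment and the Fc(mML1)B3 group of the other, so that it passed the filter through the groups in which it was higher, and these values are a description. For the Dec genes the difference was not called. It was 0.25 for Bhlhe41 with a 95% interval of -0.34 to 0.84 (adjusted p = 0.71), and 0.35 for Bhlhe40 with an interval of -0.04 to 0.74 (adjusted p = 0.3).

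**Figure D2:**
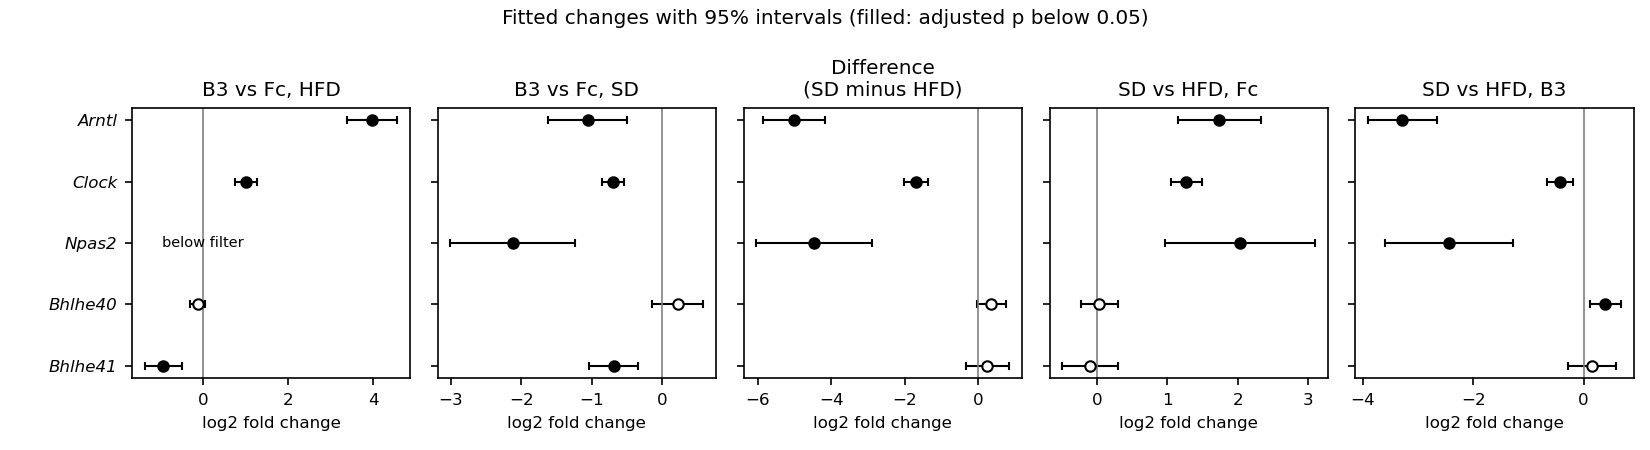
Fitted log2 fold change of each gene (point) with its 95% interval (bar) in 5 comparisons, with filled points for an adjusted p below 0.05, which for Npas2 is a description. The panels have their own horizontal scales, B3 stands for Fc(mML1)B3 and SD for the standard diet. Arntl stands at 3.98 under the HFD and at -1.05 under the standard diet, and Npas2 was below the filter under the HFD.

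The Fc mice of the experiments also differed in Arntl and Clock. Of all 14105 genes, 47.9% were called between the Fc groups and 38.5% between the Fc(mML1)B3 groups, so that a call was common here, and diet, experiment and number series cannot be told apart. In the Fc mice, the log2 fold change of the standard diet against the HFD was 1.73 for Arntl (SE 0.29) and 1.27 for Clock (SE 0.11), both called higher in edgeR (adjusted p = 7.7e-06 and 1.3e-11). For Npas2 it was 2.03 (SE 0.53), as a description, since the gene passed the filter of the fit of 36 libraries through the groups in which it was higher. Every Fc liver under the standard diet held more Arntl and more Clock than every Fc liver under the HFD. For Bhlhe40 the difference was 0.04 (95% interval -0.23 to 0.30) and for Bhlhe41 it was -0.09 (95% interval -0.49 to 0.30), and neither was called.

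In the Fc(mML1)B3 mice the order was the other way. Against the HFD, the standard diet had a log2 fold change of -3.28 for Arntl (SE 0.31, adjusted p = 1.5e-10 in edgeR) and -0.42 for Clock (SE 0.12, adjusted p = 0.0041), and -2.44 for Npas2 (SE 0.57), again as a description. Bhlhe40 was higher by 0.39 (SE 0.14, adjusted p = 0.025), a call that was lost when Fc(mML1)B3 mouse 5, 6 or 7 of the standard diet was left out (adjusted p = 0.088, 0.063 and 0.1). Bhlhe41 was at 0.15 with an interval of -0.28 to 0.59 and was not called. Over the 4 groups, the order of mean Arntl levels was therefore Fc(mML1)B3 under the HFD (18.6 CPM), Fc under the standard diet (3.97 CPM), Fc(mML1)B3 under the standard diet (1.92 CPM) and Fc under the HFD (1.19 CPM), with overlapping ranges between the last 2 and between the standard diet groups. Clock had another order, with 42.7 CPM in Fc under the standard diet, 35.5 CPM in Fc(mML1)B3 under the HFD, 26.4 CPM in Fc(mML1)B3 under the standard diet and 17.6 CPM in Fc under the HFD, and among neighbors in this order only the last 2 did not overlap. Npas2 had 1.15 CPM in Fc(mML1)B3 under the HFD, 0.925 CPM in Fc under the standard diet, 0.223 CPM in Fc under the HFD and 0.206 CPM in Fc(mML1)B3 under the standard diet, with overlap between all neighbors. Bhlhe41 had 10.8 and 10.1 CPM in the Fc groups of the HFD and the standard diet and 5.61 and 6.28 CPM in the Fc(mML1)B3 groups, and the means of Bhlhe40 lay between 118 and 154 CPM, again with overlap between all neighbors.

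To set the genes against each other, CPM was divided by exonic length, which is 2908 bases for Arntl, 9925 for Clock, 4180 for Npas2, 3113 for Bhlhe40 and 6124 for Bhlhe41. Bhlhe40 had the highest level per length in every liver, with group means of 37.8 to 49.5 CPM per kb, and Npas2 had the lowest mean in every group, 0.0493 to 0.274 CPM per kb. Clock had 1.77 ± 0.246 CPM per kb (SD, n = 10) in the Fc mice under the HFD, and Bhlhe41 had 1.76 ± 0.457 CPM per kb, with Clock above Bhlhe41 in only 4 of the 10 livers, so that the order of these neighbors did not exceed their spread. Arntl stood below both there, at 0.409 ± 0.171 CPM per kb. In the Fc(mML1)B3 mice under the HFD, Arntl stood above Clock in 9 of 10 livers, at 6.41 ± 2.78 against 3.58 ± 0.818 CPM per kb (SD, n = 10), though the ranges overlapped. In both standard diet groups Clock again stood above Arntl. Arntl and Bhlhe41 overlapped there, with Bhlhe41 higher in 6 of 9 Fc livers and in 5 of 7 Fc(mML1)B3 livers.

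**Figure D3:**
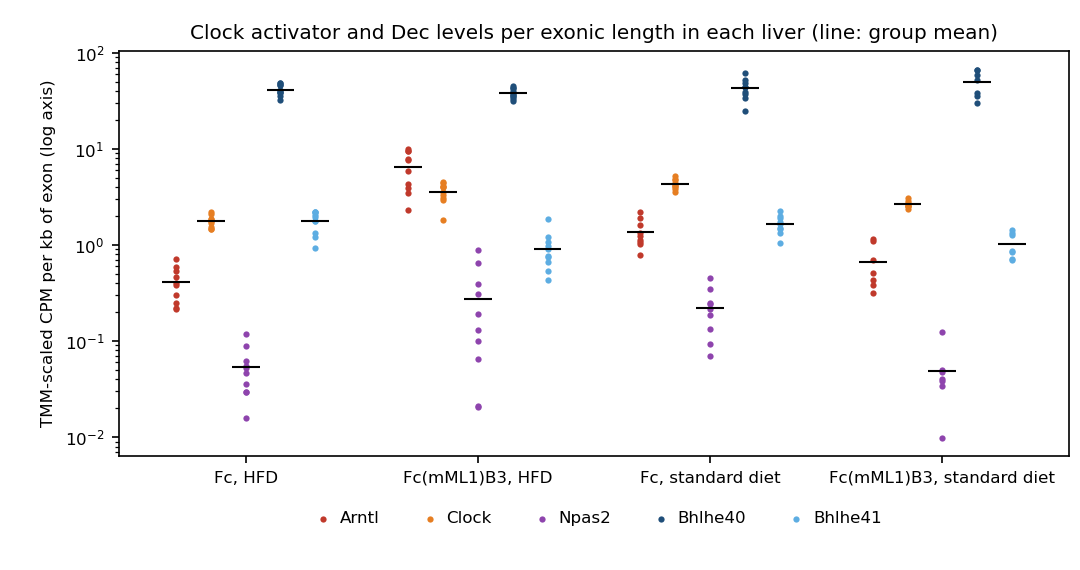
CPM per kb of exon for the 5 genes in each liver, on a log axis, by group, with 1 point per mouse and a line at the group mean. Bhlhe40 lies between 24.7 and 66.5 in all livers, and Arntl moves from 0.409 to 6.41 CPM per kb between the groups of the HFD experiment.

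The other clock genes were counted by lists of known roles. Of all genes tested, 8.14% were called higher and 6.68% lower under the HFD, and 8.56% and 7.55% under the standard diet. Within each diet, DESeq2 and limma-voom gave the same counts as edgeR for these lists, except that limma-voom called 2 and not 1 of the other E-box outputs lower under the HFD. Among the 7 Per, Cry and related repressor genes, 3 were higher and 3 lower under the HFD, and 6 were higher and 0 lower under the standard diet, against the shares of all genes given above. The median log2 fold change of the list was 0.02 and 0.74, where that of all genes tested was -0.01 under either diet. Cry1, a repressor of the activator pair, rose under both diets, by 2.22 and 1.16 on the log2 scale (adjusted p = 3.4e-07 and 3.2e-05 in edgeR). Per2 was higher under both as well, by 0.41 and 1.18. Per1 had a log2 fold change of -0.77 under the HFD against 0.72 under the standard diet, and Per3 had -1.21 and 0.74. Ciart, whose protein CHRONO binds BMAL1, had -1.96 and 1.05. Cry2 was not called under either diet (0.02 and 0.11).

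Of the 4 REV-ERB and ROR genes counted, 3 were tested, with 0 higher and 2 lower under the HFD and 0 higher and 1 lower under the standard diet (medians -1.51 and -0.02). Nr1d1 (REV-ERBα) was lower under both diets, from 83 ± 42.4 to 10.4 ± 5.83 CPM (SD, n = 10 each) under the HFD and from 129.7 ± 16.9 (SD, n = 9) to 40.4 ± 13.3 CPM (SD, n = 7) under the standard diet, with log2 fold changes of -2.97 and -1.68 (adjusted p = 9.7e-07 and 3.6e-07 in edgeR). Arntl was thus higher beside lower Nr1d1 under the HFD, and both were lower under the standard diet. Nr1d2 (REV-ERBβ) was lower under the HFD alone, at -1.51 against -0.02 on the log2 scale, and this difference was called (interaction 1.51, adjusted p = 1.2e-06). Rora, which activates through the same element, was not called (0.03 and 0.01).

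Among the PAR bZIP factors and their antagonist Nfil3, 1 was higher and 2 were lower of 4 tested under the HFD, and 2 were higher and 0 lower under the standard diet (medians -0.35 and 0.29). Dbp, an output of the activator pair, had a log2 fold change of -3.31 under the HFD against 0.14 under the standard diet (adjusted p = 5.4e-07 and 0.62 in edgeR). Its exons share 539 bases with Sphk2 on the other strand. Tef had -0.76 and 0.44. Nfil3, whose protein E4BP4 represses through D-boxes, had 1.87 and -0.29, of which the second was not called (adjusted p = 0.18).

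Of 6 other E-box outputs, 2 were higher and 1 lower under the HFD, and 5 were higher and 0 lower under the standard diet (medians -0.10 and 0.81). Under the HFD Tsc22d3 was at 0.89, Tspan4 at 0.39 and Wee1 at -0.68, and under the standard diet Nampt, the rate-limiting enzyme of NAD salvage, was at 0.99 and Tspan4 at 0.69. Tspan4 shares 292 exonic bases with Chid1. Of the 6 clock kinases and ubiquitin ligases counted, 0 were higher and 2 lower under the HFD, and 0 were higher and 1 lower under the standard diet (medians -0.09 under either). These were Btrc (-0.24) and Fbxl21 (-0.37) under the HFD and Csnk1e (-0.28) under the standard diet. Of 11 coregulators, 1 was lower under the HFD (Kdm5a, -0.21) and 2 under the standard diet (Ncor1, -0.15, and Kmt2a, -0.24), with medians of 0.02 and -0.03. Kdm5a shares 271 exonic bases with Ccdc77, and Ncor1 shares 16 with Ttc19.

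**Figure D4:**
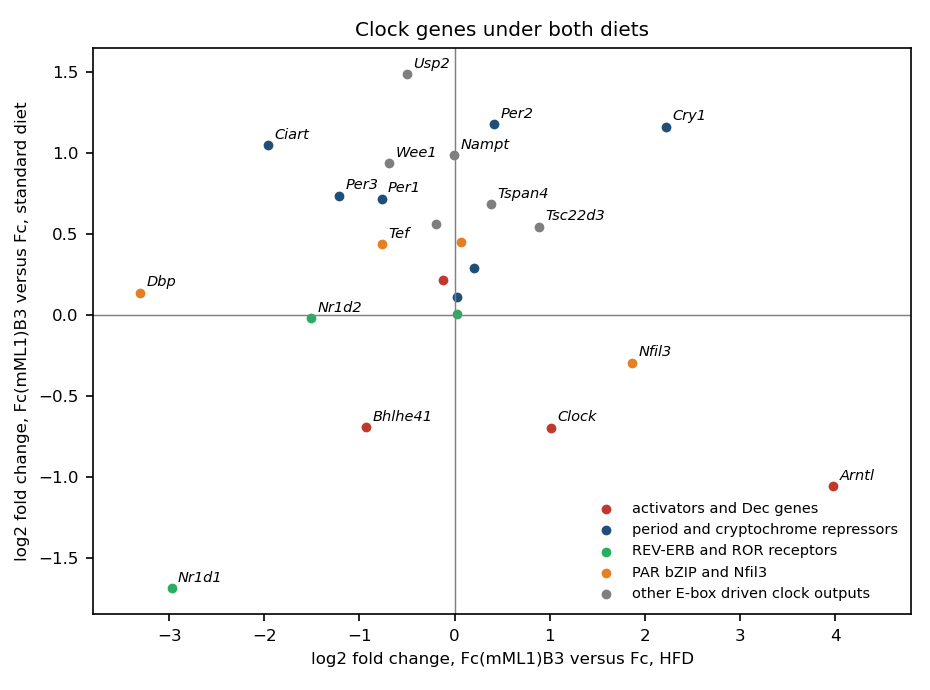
Log2 fold change of Fc(mML1)B3 against Fc under the HFD (horizontal) and the standard diet (vertical) for 24 clock genes tested under both, colored by list. Arntl and Clock lie at the lower right (3.98 and -1.05, 1.02 and -0.69), Nr1d1 and Bhlhe41 at the lower left, and Cry1 at the upper right.

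Within each group, the 10 pairs of these genes and each gene with Nr1d1 were compared mouse by mouse on log2 CPM, 60 relations in all, with adjustment over the 60. Both Pearson's r and Spearman's rho passed in 6. In the Fc(mML1)B3 mice under the HFD, Arntl and Nr1d1 ran opposite (r = -0.898, permutation p = 6.5e-04, adjusted 0.0098; rho = -0.842, permutation p = 0.0038, adjusted 0.045; n = 10), and r was -0.891 without the 2 livers farthest from the median of Arntl. Clock and Nr1d1 also ran opposite (r = -0.864, permutation p = 1.2e-04, adjusted 0.0072; rho = -0.855, permutation p = 0.003, adjusted 0.045; r = -0.837 without 2 livers). Arntl and Npas2 rose together over the livers (r = 0.863, permutation p = 0.0015, adjusted 0.018; rho = 0.855, permutation p = 0.003, adjusted 0.045; r = 0.906 without 2 livers). These livers belong to series B and C, and the 4 of series B are too few for a value. Over the 6 of series C, r was -0.817 for Arntl and Nr1d1 (exact permutation p = 0.074; rho = -0.543, exact p = 0.297), -0.784 for Clock and Nr1d1 (exact permutation p = 0.099; rho = -0.371, exact p = 0.497) and 0.775 for Arntl and Npas2 (exact permutation p = 0.032; rho = 0.714, exact p = 0.136). The signs were the same within the series, these p-values are unadjusted, and in none of the 3 relations were both r and rho below 0.05 there.

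In the standard diet mice given Fc(mML1)B3, all of series E, Bhlhe41 rose with Nr1d1 (r = 0.949, exact permutation p = 0.0018, adjusted 0.018; rho = 0.964, exact p = 0.0028, adjusted 0.045; n = 7; r = 0.907 without 2 livers). In the Fc mice under the standard diet, Bhlhe41 ran opposite to Arntl (r = -0.915, exact permutation p = 6.6e-04, adjusted 0.0098; rho = -0.867, exact p = 0.0045, adjusted 0.045; n = 9; r = -0.761 without 2 livers). The DEC genes rose together there (r = 0.935, exact permutation p = 4.3e-04, adjusted 0.0098; rho = 0.917, exact p = 0.0013, adjusted 0.045; n = 9; r = 0.770 without 2 livers). The 5 and 4 livers of series D and E in that group are too few for values of their own. Bhlhe40 and Bhlhe41 had r of 0.0814 (Fc) and 0.0445 (Fc(mML1)B3) in the HFD groups and -0.534 in the standard diet mice given Fc(mML1)B3, none of which passed, and the difference between groups was not tested. In the Fc mice, Arntl and Nr1d1 had r of -0.303 under the HFD against 0.198 under the standard diet, and neither passed. Bhlhe41 and Nr1d1 had r of 0.278 (Fc) and 0.133 (Fc(mML1)B3) in the HFD groups and -0.343 in the Fc mice under the standard diet, and none passed. Over the 6 Fc(mML1)B3 livers of series C, however, r was 0.955 (exact permutation p = 0.0083) and rho was 0.943 (exact permutation p = 0.017), both unadjusted. Only this pair had both below 0.05 within series C.

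**Figure D5:**
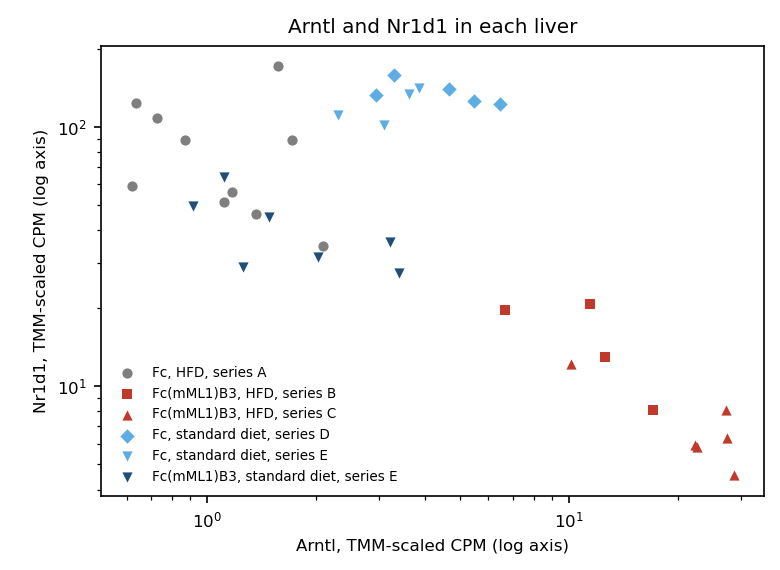
Nr1d1 against Arntl in each liver, in CPM scaled by TMM, both on log axes, colored by group and with the shape giving the library number series. The 10 Fc(mML1)B3 livers of the HFD experiment lie at the lower right, with Nr1d1 between 4.53 and 20.8 CPM, and fall from left to right.

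The genes whose livers deviated most like each gene from the group means were found by Pearson's r over the 36 mice and 14105 genes, as a description. The points share libraries and depth, and genes among the 3 highest and 3 lowest are named. Differences between number series within a group were not taken out. In the Fc(mML1)B3 mice under the HFD, the series B and C means were 11.96 and 23.08 CPM for Arntl and 0.2165 and 1.768 CPM for Npas2. Arntl went with Chka (r = 0.845), Caprin1 (0.762) and Nedd4l (0.755), and against Dbp (-0.812), Per3 (-0.769) and Nr1d2 (-0.722). Clock went with Cpeb4 (0.878), Col4a3bp (0.835) and Sp3 (0.819), and against Gnb2 (-0.826), Pfn1 (-0.785) and Tcf19 (-0.775). Npas2 went with Ppard (0.754) and Lgalsl (0.753), and against Dbp (-0.778), Anxa7 (-0.711) and Gmnn (-0.699). No gene named as most like 1 of the 3 activators was named for another, but lists of 3 genes are too short to compare them. Dbp ran lowest against both Arntl and Npas2. Bhlhe40 went with Klf10 (0.762), Gm6484 (0.649) and Brd2 (0.648), and against Col9a3 (-0.604), 2500004C02Rik (-0.524) and Zkscan14 (-0.515). Bhlhe41 went with Dnmt3a (0.769), Nfatc4 (0.738) and Cbx7 (0.735), and against Bhmt2 (-0.766), Pex2 (-0.763) and Prodh2 (-0.749).

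Marker genes of other cell types moved in places beside these results. Within each diet, the edgeR counts below stand against the shares of all genes given above. In bulk liver, fewer cells of a type and less RNA per cell cannot be told apart. Under the HFD, 2 of 4 tested neutrophil markers and 3 of 5 B and plasma cell markers were lower with Fc(mML1)B3, with summed levels of 5.33 to 59.7 against 5.22 to 11.8 CPM and of 11 to 35.5 against 8.14 to 17.3 CPM, and 1 of 8 hepatocyte and 1 of 6 endothelial markers were higher. The neutrophil count was 2 with DESeq2 and 0 with limma-voom, which had 1 lower at an unadjusted p below 0.05, and the B and plasma cell count was 4 with DESeq2 and 3 with limma-voom. Limma-voom also called 2 of 8 stellate cell and 1 of 6 cholangiocyte markers lower and 2 of 8 hepatocyte markers higher there. Under the standard diet, 3 of 8 hepatocyte markers were higher, and 2 of 8 stellate cell, 1 of 8 Kupffer cell and 1 of 6 cholangiocyte markers were lower, with summed hepatocyte levels of 111700 to 141700 against 120100 to 135600 CPM and summed stellate cell levels of 512 to 755 against 453 to 589 CPM. Limma-voom called 3 of 8 stellate cell markers lower here, and DESeq2 and limma-voom each called 1 of 5 B and plasma cell markers higher, where edgeR called 0 and had 2 higher at an unadjusted p below 0.05. In the fit of all 36 libraries, edgeR called more of these markers between the diets, where calls were common over all genes. Of 14105 genes, 47.9% were called in the Fc mice and 38.5% in the Fc(mML1)B3 mice. In the Fc mice, 5 of 6 T and NK cell, 4 of 5 B and plasma cell, 5 of 8 stellate cell, 2 of 8 Kupffer cell, 2 of 6 cholangiocyte and 1 of 4 neutrophil markers were lower under the standard diet, and 2 of 8 hepatocyte, 2 of 6 endothelial and 1 of 8 stellate cell markers were higher. In the Fc(mML1)B3 mice, 4 of 8 stellate cell, 2 of 6 T and NK cell, 2 of 8 Kupffer cell, 2 of 6 cholangiocyte and 1 of 4 neutrophil markers were lower, and 1 each of the stellate cell, hepatocyte, endothelial and B and plasma cell markers was higher. Of 2 tested erythroid markers, 1 was higher under the standard diet with either protein. Between the diets, limma-voom called 5 hepatocyte markers higher and 1 lower in the Fc mice and 3 endothelial markers lower in the Fc(mML1)B3 mice, and the counts of DESeq2 and the other counts of limma-voom for the cell types named were within 1 of those of edgeR. For the interaction, 3 of 5 B and plasma cell markers were called higher and 1 of 8 hepatocyte and 1 of 6 endothelial markers lower, with the same counts in DESeq2 and limma-voom. Of all genes, edgeR called 9.06% there. Between the proteins, T and NK cell markers had 0 calls of 6 under either diet with edgeR, DESeq2 and limma-voom, and 2 were lower under the HFD at an unadjusted p below 0.05. Hba-a1, Hbb-bs and Myh4 were at 0 reads in every library. The part of these cell types in the results of the 5 genes was not tested.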

How the data were processed

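Liver RNA of 36 mice was measured by RNA sequencing (MGIEasy directional libraries). The deposited values are raw counts per gene: per the labels and methods, the authors trimmed reads with fastp, removed ribosomal RNA with Bowtie2 2.4.5, aligned to mm10 with STAR 2.7.10a and counted with featureCounts of Subread 2.0.3. Per the file headers, both ends of a pair had to align, each end was counted, and strand was ignored. Reads with several alignments were left out. Counting without strand adds reads of overlapping genes, and counting each end raises totals without adding molecules.

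From the counts, genes were tested in R 4.3.3 with edgeR 4.0.16 (TMM, quasi-likelihood F-test), with filterByExpr and Benjamini-Hochberg adjustment over all genes tested. Each diet was fitted alone, and the interaction and the comparisons between diets were fitted on all 36 libraries. Standard errors (SE) are the absolute log2 fold change over the root of F, and intervals are 95%. Permutation tests (2-sided) used mean log2 CPM with a prior count of 2, with 100000 resamples under the HFD and all groupings under the standard diet, and are unadjusted. Correlations used the same values, with exact permutation for 7 and 9 mice and 100000 resamples for 10. They ran in Python 3.11.15 with numpy 2.4.6 and scipy 1.17.1.

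The 5 genes are reported in full. Of each list of other clock genes, those called are named, at most 2 in each direction by p, as are Nr1d1, Nr1d2, Dbp and the Per and Cry genes. Rora and Arntl2 were named after their values were seen. For likeness, genes among the 3 at either end are named. A few genes that these rules select are not reported here and were left out of the list counts. The genes and lists were chosen with earlier results of these data known. Alternatives were DESeq2 1.42.0, limma-voom (limma 3.58.1), upper-quartile scaling, other filters and limits, a replicate block, number series, library totals, a prior count of 0.5 and each library left out. The fits with 4 or 6 Fc(mML1)B3 libraries of the HFD experiment were chosen after seeing the data. On simulated counts with 100 genes changed at a log2 fold of 1, the test recovered 93% under the HFD, 92% under the standard diet and 81% for the interaction, with 4.06%, 7.25% and 5.43% false among all calls of each simulation.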

Additional observations from a re-analysis of the deposited data

Results flagged for a closer look

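Under the HFD, Clock in Fc(mML1)B3 mouse 2, at 18.2 CPM, stood apart from the other 9 livers of its group by Dixon's test on log2 CPM. It was 1 of 20 sets of livers tested for the 5 genes, and chance flags about 1 in 20.

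Arntl, Clock and 16 genes of the other clock lists were called by the interaction term of edgeR, as were 9.06% of all genes. For these, the difference between Fc(mML1)B3 and Fc mice was not the same in the HFD and the standard diet experiments. The tests took in 7 repressors, 3 receptors, 4 PAR bZIP genes with their antagonist and 6 other E-box outputs. They also took in 6 kinases and ligases, of which 0 were called, and 11 coregulators. Differences are log2 fold changes under the standard diet minus those under the HFD. They were -5.02 for Arntl and -1.69 for Clock. Npas2, at -4.47, passed the filter through the groups in which it was higher and is a description. Among the repressors they were 1.51 for Per1, 0.78 for Per2, 1.96 for Per3, -1.05 for Cry1 and 3.03 for Ciart. Among the receptors they were 1.30 for Nr1d1 and 1.51 for Nr1d2. Among the PAR bZIP genes and their antagonist they were 3.46 for Dbp, 1.22 for Tef, 0.41 for Hlf and -2.15 for Nfil3. Among the other E-box outputs they were 2.01 for Usp2, 1.64 for Wee1, 1.01 for Nampt and 0.77 for Gys2, and among the coregulators -0.22 for Ncor1. Diet, experiment, dosing and number series cannot be told apart in these differences, and the hour at which livers were taken is not given.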

How the results depend on the processing

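No call among the 5 genes was reversed by an alternative, and leaving out single mice changed none within a diet. Under a replicate block the genes called fell from 1972 to 1294 under the HFD, from 2186 to 1302 under the standard diet and from 1278 to 703 for the interaction. Same-numbered mice correlated at -0.62 to 0.26 under the HFD and -0.16 to 0.001 under the standard diet. Mice of different numbers were not compared, so that whether the numbers pair the mice was not settled. With this block, the standard diet calls of Arntl (-1.11, adjusted p = 0.079) and Bhlhe41 (-0.72, adjusted p = 0.077) were lost, as were those between diets in Fc(mML1)B3 mice of Clock (-0.33) and Bhlhe40 (0.28). That of Bhlhe40 was also lost with limma-voom (0.30) and upper-quartile scaling (0.30). Npas2, given as a description, was at -1.25 between diets in the Fc(mML1)B3 mice with the block, against -2.44 without it. Under the HFD, 3039 genes were called with limma-voom, 178 with a fold above 2 and the adjusted p below 0.1, 532 with a fold above 1.5, 3133 in the fit of all 36 libraries and 705 with the 4 libraries of series B. Under the standard diet these were 82 and 320 by the limits, 785 in the fit of 36 and 942 within series E, and limma-voom called 2026 for the interaction. The fold limit of 2 left out Bhlhe41 under both diets and Clock under the standard diet by its construction. The cause of the other losses was not tested. Npas2 rested on few reads, 1 to 103 per library, and DESeq2 left its interaction without an adjusted p.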

Other observations

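Relatives of the 5 genes were counted as well. For all genes tested, edgeR called 8.14% higher and 6.68% lower under the HFD, and 8.56% and 7.55% under the standard diet. Of 13 other bHLH-PAS genes, the family of Arntl, Clock and Npas2, 6 were tested under each diet. Under the HFD 0 were called by edgeR, DESeq2 or limma-voom, with 0 at an unadjusted p below 0.05, and 1 was higher under the standard diet, Arnt, the partner of the aryl hydrocarbon receptor, at a log2 fold change of 0.32 (adjusted p = 5.6e-04). Arntl2, the closest paralog of Arntl, was not called, at -0.25 in the HFD experiment and -0.52 in the other (adjusted p = 0.11), where it was the 1 gene of the 6 that was lower at an unadjusted p below 0.05 in edgeR. Of 10 other Hes and Hey genes, relatives of the Dec genes, 4 were tested under each diet. Under the standard diet Hes6 was at 0.89 (adjusted p = 5.1e-06), Hes1 at -0.41 (adjusted p = 0.04) and Heyl at -0.46 (adjusted p = 0.029), and under the HFD 0 of the 4 were called by edgeR and DESeq2, 1 was lower with limma-voom, and 2 were lower at an unadjusted p below 0.05 in edgeR. With limma-voom, 1 and not 2 were lower under the standard diet.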
